A study of Nasonia vitripennis with 6 samples.

Results

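Ribosome biogenesis and nucleolar genes were compared between venom gland (VG) and ovary in the parasitoid wasp *Nasonia vitripennis*. The genes were chosen by words in the annotation of the official gene set, namely nucleolar, ribosome biogenesis, ribosome production, ribosome maturation, rRNA and ribosomal RNA. Annotations with tRNA, helicase or mitochondrial were left out. This gave 51 of the 36329 genes in the table. RNA was taken from 3 VG replicates and 3 ovary replicates, each pooled from 40 to 50 mated females that were 1 to 3 days old and had been exposed to hosts. All females belonged to the strain Lab II, and the study kept the wasps on pupae of the blowfly *Lucilia sericata*. Both tissues therefore shared strain, age, mating and host contact, and differed in the organ dissected.

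Ribosome biogenesis begins in the nucleolus, where RNA polymerase I makes a long rRNA precursor. Small nucleolar ribonucleoprotein particles (snoRNPs) guide its chemical modification, and the U3 snoRNP nucleates the small subunit processome, the large assembly that releases the precursor of the 40S subunit. Other factors build the 60S subunit, and both subunits finish their maturation in the cytoplasm. In insect ovaries of the kind found in wasps, nurse cells make ribosomes for the growing oocyte, whereas the VG is a secretory organ that makes venom proteins.

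The values are normalised read counts, which are read counts divided by a size factor for each library and averaged over the 3 libraries of a tissue. They are not divided by gene length, so they were compared between tissues for 1 gene and not between genes. Log2 ratios are VG over ovary, and a negative ratio means a lower value in the VG. As the table gives 1 mean per tissue, no test between replicates was made, and a gene was called lower or higher in the VG where the tissue means differed at least 2-fold. Low and middling VG means could be split into the whole reads of the 3 libraries, called here VG libraries a, b and c because nothing ties them to replicate numbers. In these bulk tissues, fewer cells that express a gene and less of its RNA per cell cannot be told apart.

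The size factors recovered from the reads ran between 0.287 and 0.525 in the VG libraries and between 2.30 and 2.58 in the ovary libraries, so that 1 read counted for more in the VG. VG library c had the lowest factor, 0.287. A VG replicate that the study described as richer in rRNA reads is not tied to a letter here. The 5 venom protein genes used as VG markers were higher in the VG by 14.65 to 15.20 on the log2 scale, with ovary means of 151 at most. They are among the venom genes that the study ranked highest by VG reads of these same libraries. Their high VG level was thus known in advance and does not test the dissection. A list of 20 germ line and ovary genes was chosen by words in the annotation, such as vasa, tudor and maternal. Whether each is specific to the ovary was not tested. Of the 18 that passed the filter, 17 were called lower in the VG (34.2% of all genes) and none higher. The list had 2 genes at 0 in the VG alone and 2 at 0 in both tissues. Their summed level was 3565 to 4017 in the VG libraries against an ovary mean of 92859.8. The VG mean was 0.152% of the ovary mean for oskar, 0.189% for nanos and 0.403% for vasa, genes that mark the germ line. These were among the lowest of the list. Over the 18 that passed the filter, log2 ratios ran between -9.36 and 0.09, with a median of -4.86. The VG mean was 28.6% of the ovary mean for a Tudor domain-containing protein 7 model and 106% for a tudor and KH domain gene. By the same measure, the lowest of the ribosome biogenesis genes with reads had a VG mean of 17.0% of its ovary mean. This lies inside the range of the ovary genes.

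Most ribosome biogenesis genes were lower in the VG than in the ovary, but by a modest amount. Of the 51 genes, 49 had an average of the tissue means of at least 10, and 42 of these 49 (85.7%) had a lower mean in the VG, compared with 53.4% of the 10689 genes that passed the same filter. At 2-fold, 19 of 49 (38.8%) were called lower in the VG, close to the 34.2% of all genes. Only 1 of 49 (2.04%) was called higher in the VG, compared with 31.1% of all genes, and 29 (59.2%) lay within 2-fold, compared with 34.7%. With the deposited scaling and this limit, the set thus differed from the other genes more in how few members were high in the VG and how little they varied than in the share called lower. The share called lower was further from that of all genes under some other settings, with 31 of 49 against 41.9% at 1.5-fold. It was 40 of 49 against 46.4% when the 100 highest genes of either tissue were left out of the scaling. When each tissue was scaled to its sum, it was 48 of 49 against 73.3%. Other settings left it close, with 16 of 49 against 30.8% when centred on the median of all genes. At an average mean of at least 100, it was 18 of 48 against 35.5%. At 4-fold the members fell below all genes, with 4 of 49 against 19.2%. Without the filter on low values, 21.3% of all genes with a read were called lower. That share depends on the value set for a tissue at 0, which is higher in the VG. The median log2 ratio of the 49 members was -0.78 with an interquartile range of 0.87. All genes that passed the filter had a median of -0.16 and an interquartile range of 3.07.

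The contrast with the other genes was also seen at like expression levels. Among the 7652 genes whose average mean fell in the range of the members, 80.6 to 5361, 36.8% were called lower in the VG, 23.3% were called higher and 39.9% lay within 2-fold, with a median of -0.41. The members just past 2-fold were NOP56 and RPF1, both at -1.03, and those just short of it were nucleolar protein 11 at -0.98 and NOG2 at -0.97. The count of 19 therefore rests on small differences around the limit.

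**Figure D1:**
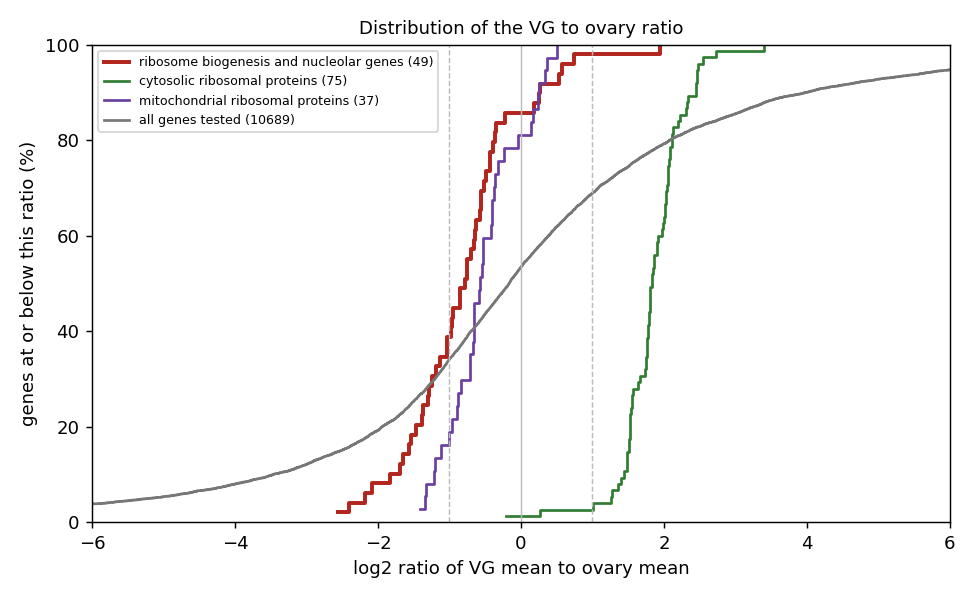
Cumulative share of genes (vertical axis, %) at or below each log2 ratio of VG mean to ovary mean (horizontal axis, cropped at 6 in both directions), with dashed lines at 2-fold. The steep curve of the 49 ribosome biogenesis genes (median -0.78) lies left of 0 for 42 genes and close to that of the mitochondrial ribosomal proteins (median -0.58), while the cytosolic ribosomal proteins lie to the right (median 1.83, which becomes -0.54 when each tissue is scaled to its sum over all genes).

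The VG reads could be split by library for 40 of the 49 genes, with 48 to 1227 reads per gene in all and 13 to 576 in a single library. The other 9 had VG means too high to be split without a further assumption. Among these were NOC4, UTP15, NOG1, RLP24 and the only member called higher in the VG, all with means above that of the ovary. Fibrillarin, NOP58, NOP56 and rRNA methyltransferase 3, also not split, had lower means in the VG. Of the members with a higher VG mean, only TSR2 and rRNA methyltransferase 1 were thus left. The shares of the 40 genes therefore do not stand for all 49. All 3 VG libraries lay below the ovary mean for 34 of the 40 genes (85%), compared with 54.4% of the 8171 genes that could be read in this way. All 3 lay above it for 1 gene (2.5%), the 40S factor TSR2, compared with 31.3%. The libraries fell on both sides of the ovary mean for the remaining 5, which were NOP16, the ribosome biogenesis regulatory protein, the cell growth-regulating nucleolar protein, NEP1 and rRNA methyltransferase 1. All 3 libraries were at least 2-fold below the ovary mean for 13 of the 40 (32.5%), near the 33.4% of all genes.

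Spread between the VG libraries was small beside most of these differences. The SD of the log2 values over the 3 libraries had a median of 0.27 for the 38 members with VG means of 100 to 1000, ranging between 0.03 and 0.72, compared with a median of 0.29 for 4617 genes at this level. The highest library exceeded the lowest by a median of 1.43 times, and by more than 2-fold in 3 genes. Library a gave the highest value for 6 of the 40 genes, and libraries b and c for 17 each. The median log2 ratio to the ovary mean was -0.98 in library a, -0.87 in library b and -0.84 in library c. Over the 6045 genes that passed the filter and were split at like VG means, these medians were -0.39, -0.40 and -0.39.

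**Figure D2:**
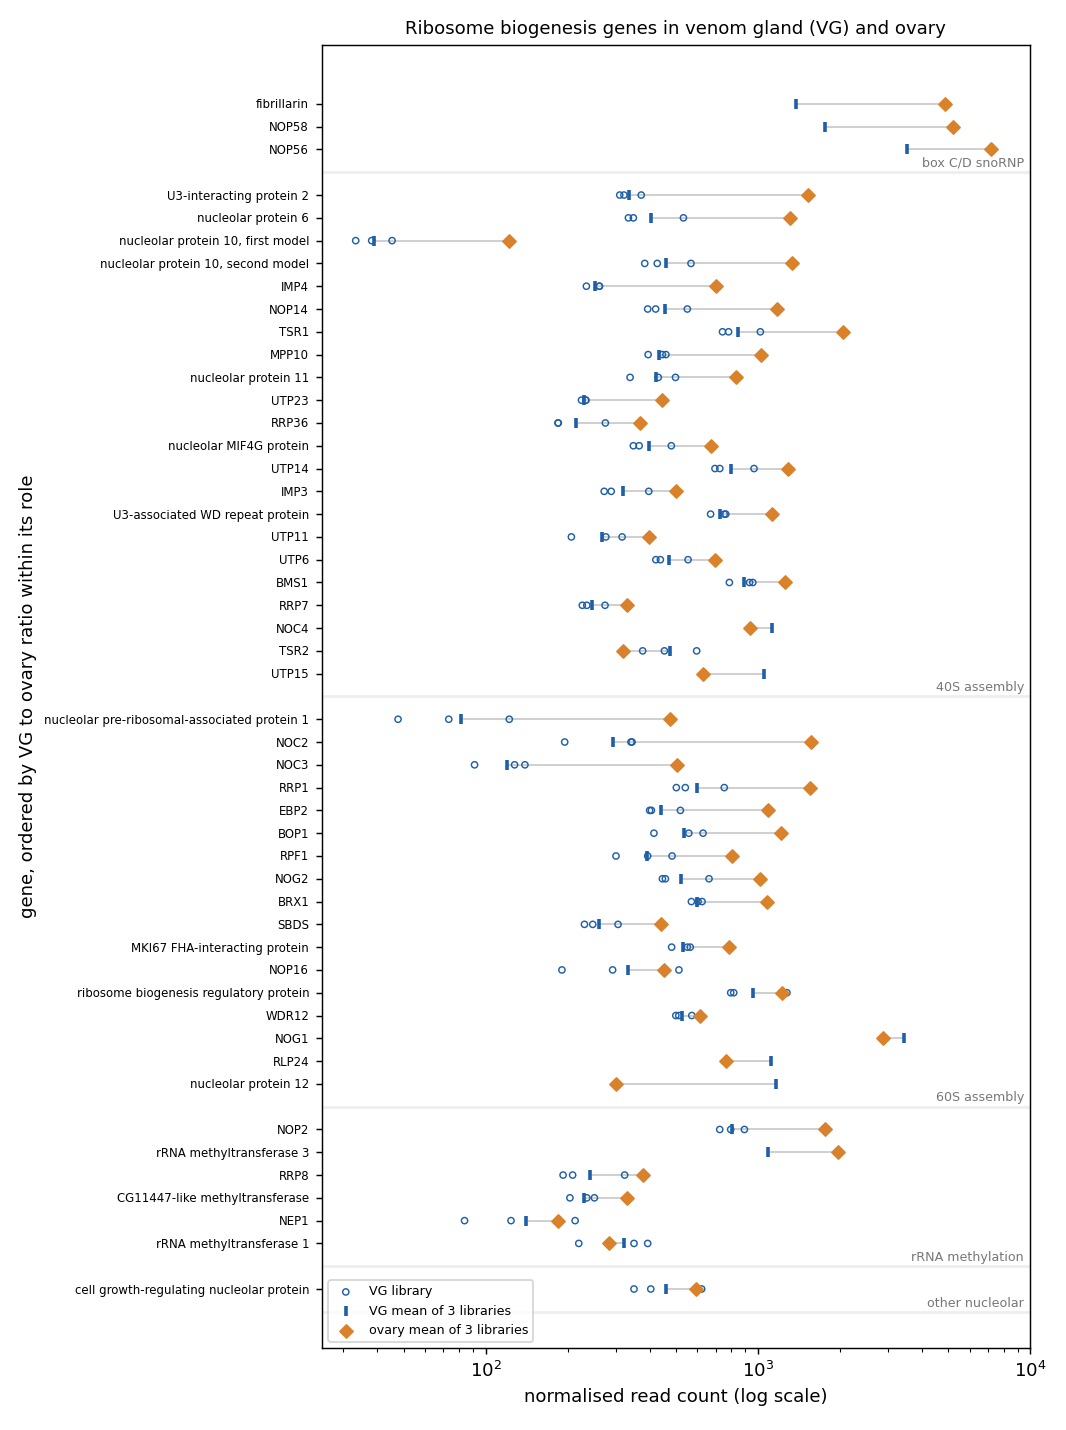
Normalised read counts (horizontal axis, log scale) of the 49 genes that passed the filter, grouped by role and ordered by log2 ratio. Circles are VG libraries where the reads could be split (40 genes), blue ticks are VG means and orange diamonds are ovary means, each over 3 libraries; the diamond lies right of the tick for 42 genes, and the widest gaps are those of nucleolar pre-ribosomal-associated protein 1, NOC2, U3-interacting protein 2 and NOC3. The 7 genes with the diamond on the left all turn round when each tissue is scaled to its sum over all genes.

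The box C/D snoRNPs are the particles that guide 2'-O-methylation of rRNA. The 3 of their core proteins found among the members were all called lower in the VG, against 34.2% of all genes, with a median log2 ratio of -1.56. Fibrillarin (Nasvi2EG004275), the methyltransferase of these particles, averaged 1377 normalised counts in the VG and 4886 in the ovary, a log2 ratio of -1.83 or 3.55-fold lower in the VG. NOP58 (Nasvi2EG000039), 1 of the paired scaffold proteins, averaged 1763 in the VG and 5202 in the ovary, a log2 ratio of -1.56. Its partner NOP56 (Nasvi2EG015635) averaged 3518 in the VG and 7204 in the ovary, a log2 ratio of -1.03.

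These VG means were too high for the strict split. If each library is taken to lie within 1.5-fold of its tissue mean, an assumption made after the data were seen, a single solution remains for fibrillarin and NOP58. The assumption bounds the spread it gives, and it does not always hold. Among genes split without it, all libraries lay within 1.5-fold of the mean for 78.4% at VG means of 100 to 1000 and for 94.3% at ovary means of 50 to 150, and 4 of the 40 members had a VG library outside it (nucleolar pre-ribosomal-associated protein 1, NOC2, NOP16 and NEP1). Under the assumption, fibrillarin had 1359, 1306 and 1467 in VG libraries a, b and c (SD 82.3, n = 3), against the ovary mean of 4886. NOP58 had 1679.5, 2138 and 1471 in VG libraries a, b and c (SD 342, n = 3) against the ovary mean of 5202.

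Factors of the 40S subunit and its processome numbered 23, of which 22 passed the filter. In the VG, 8 of 22 (36.4%, against 34.2% of all genes) were called lower and none higher, 19 had a mean below that of the ovary, and the median log2 ratio was -0.77. The lowest ratio was that of U3-interacting protein 2 (Nasvi2EG004125), which binds the U3 snoRNA itself. It had 322, 311 and 373 normalised counts in VG libraries a, b and c (mean 335 ± 33.0, SD, n = 3), against an ovary mean of 1527. The log2 ratio was -2.19, or 4.55-fold lower in the VG, and every VG library lay far below the ovary mean.

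Nucleolar protein 6 (Nasvi2EG007970), a processome component known from yeast as UTP22, had 349, 533 and 335 in the VG libraries (mean 405 ± 111, SD, n = 3) against an ovary mean of 1313, a log2 ratio of -1.69. Library b was the highest, and all 3 remained below the ovary mean by more than 2-fold. Nucleolar protein 10, also a processome component, is annotated on 2 genes with consecutive identifiers. The first (Nasvi2EG002691) had 38.1, 33.3 and 45.3 in the VG libraries against an ovary mean of 122, a log2 ratio of -1.65. For the second (Nasvi2EG002692), the VG libraries had 427, 384 and 568 and the ovary mean was 1341, a log2 ratio of -1.54. Both models were called lower in the VG with like ratios, and whether they are parts of a single gene was not tested.

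MPP10, IMP3 and IMP4 form a single complex on the U3 snoRNP in yeast, yet their ratios differed. IMP4 (Nasvi2EG014967) had 234, 262 and 261 in the VG libraries (mean 253 ± 15.7, SD, n = 3) against an ovary mean of 702, a log2 ratio of -1.48. MPP10 (Nasvi2EG004244) had 459, 395 and 446 in the VG libraries (mean 434 ± 33.9) against an ovary mean of 1028, a log2 ratio of -1.24. IMP3 (Nasvi2EG001101) had 273, 397 and 289 in the VG libraries (mean 319.8 ± 67.8) against an ovary mean of 500.03, a log2 ratio of -0.64. The VG libraries of IMP4 and MPP10 were all more than 2-fold below the ovary mean, and those of IMP3 were all below it by less than 2-fold.

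A further complex known from yeast, that of NOP14 and NOC4, was split in direction. NOP14 (Nasvi2EG014094) had 421, 551 and 394 in the VG libraries (mean 455 ± 83.8, SD, n = 3) against an ovary mean of 1179, a log2 ratio of -1.37. NOC4 (Nasvi2EG005278) averaged 1127 in the VG and 939 in the ovary, a log2 ratio of 0.26, and its VG libraries read under the 1.5-fold assumption were 1241, 984 and 1157, all above the ovary mean. The excess of NOC4 was small, and its sign turned (-0.38) when the 100 highest genes of either tissue were left out of the scaling.

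Among the GTPases and GTPase-like factors of 40S assembly, TSR1 (Nasvi2EG006794) had 742, 1021 and 781 in the VG libraries (mean 848 ± 152, SD, n = 3) against an ovary mean of 2063, a log2 ratio of -1.28. BMS1 (Nasvi2EG009941), an essential GTPase of the processome in yeast, had 932, 786 and 958 in the VG libraries (mean 892 ± 92.9) against an ovary mean of 1254, a log2 ratio of -0.49. All 3 VG libraries lay below the ovary mean in both genes, but only in TSR1 were they 2-fold below it.

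Several processome components were lower by less than 2-fold. UTP14, which in yeast activates a helicase that removes U3 from the precursor, had VG libraries of 696, 968 and 725 against an ovary mean of 1289.5, a log2 ratio of -0.70. Nucleolar protein 11, a human processome factor linked to rRNA transcription, had 339, 431 and 498 against 834 in the ovary, a log2 ratio of -0.98. UTP6, UTP11, a WD repeat protein annotated as U3-associated, the nucleolar MIF4G domain protein, RRP36, RRP7 and UTP23 had log2 ratios of -0.95 to -0.43, and all 3 VG libraries of each lay below the ovary mean.

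TSR2 and UTP15 had higher means in the VG. TSR2 (Nasvi2EG010971), which in yeast escorts a ribosomal protein to the 40S subunit, had 454, 378 and 596 in the VG libraries (mean 476 ± 111, SD, n = 3) against an ovary mean of 318, a log2 ratio of 0.58. It was the only gene of the 40 with every VG library above the ovary mean. UTP15 (Nasvi2EG002930), a subunit of the complex that binds the start of the precursor, averaged 1051 in the VG and 626 in the ovary, a log2 ratio of 0.75. Its VG libraries under the 1.5-fold assumption were 812, 1526 and 816, and the assumption alone places them above the ovary mean. Scaling to the sum over all genes turned the sign of both, to -1.79 for TSR2 and -1.62 for UTP15, and leaving the 100 highest genes of either tissue out of the scaling gave -0.07 for TSR2 and 0.10 for UTP15.

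FCF1 (Nasvi2EG000093), which processes the small subunit rRNA in yeast, was listed at 0 in both tissues, and no ratio was computed. As 4 cytosolic ribosomal protein genes were also listed at 0 in both tissues, a value of 0 cannot be told apart from reads that were not assigned to the gene model.

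Factors of the 60S subunit numbered 18, of which 17 passed the filter. In the VG, 7 of 17 (41.2%, against 34.2% of all genes) were called lower and 1 higher, 14 had a mean below that of the ovary, and the median log2 ratio was -0.86. The 2 lowest ratios of all members were in this group. Nucleolar pre-ribosomal-associated protein 1 (Nasvi2EG002637), an early 60S factor known from yeast as NPA1, had 47.7, 122 and 73.2 in the VG libraries (mean 81.0 ± 37.8, SD, n = 3) against an ovary mean of 477. The log2 ratio was -2.56, or 5.89-fold lower in the VG. Its VG libraries differed by more than 2-fold among themselves, but the highest was still more than 2-fold below the ovary mean.

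NOC2 and NOC3 act together in nuclear steps of 60S assembly in yeast, and both were called lower in the VG. NOC2 (Nasvi2EG012053) had 345, 342 and 195 in the VG libraries (mean 294 ± 85.7, SD, n = 3) against an ovary mean of 1562, a log2 ratio of -2.41. NOC3 (Nasvi2EG018557) had 128, 91.0 and 139 in the VG libraries (mean 119 ± 25.2) against an ovary mean of 506, a log2 ratio of -2.08. The highest VG library of each was more than 2-fold below the ovary mean, whereas NOC4, a 40S factor of similar name, was not lower.

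RRP1 (Nasvi2EG007365), needed for 60S maturation in yeast, had 541, 753 and 502 in the VG libraries (mean 599 ± 135, SD, n = 3) against an ovary mean of 1558, a log2 ratio of -1.38. EBP2, another nucleolar 60S factor, had 400.3, 406 and 519 in the VG libraries against 1092 in the ovary, a log2 ratio of -1.30. RPF1, which takes part in 60S assembly in yeast, had 301, 484 and 394 in the VG libraries against 804 in the ovary, a log2 ratio of -1.03. All 3 VG libraries of RRP1 and EBP2 were more than 2-fold below the ovary mean, and those of RPF1 were spread around that limit.

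BOP1 and WDR12 join with pescadillo in the PeBoW complex of mammals, and the 3 genes differed. BOP1 (Nasvi2EG030689) had 629, 415 and 558 in the VG libraries (mean 534 ± 109, SD, n = 3) against an ovary mean of 1212, a log2 ratio of -1.18. WDR12 (Nasvi2EG002531) had 572, 499.6 and 512 in the VG libraries (mean 528 ± 38.6) against an ovary mean of 615, a log2 ratio of -0.22. Pescadillo, whose annotation holds none of the words used to choose members, averaged 2590.0 in the VG and 2581 in the ovary, a log2 ratio of 0.00. Thus BOP1 was called lower in the VG, all 3 VG libraries of WDR12 lay just below the ovary mean, and pescadillo had nearly equal means.

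The 60S GTPases also differed from each other. NOG2 had 458, 662 and 446 in the VG libraries (mean 522 ± 121, SD, n = 3) against an ovary mean of 1022, a log2 ratio of -0.97. NOG1 (Nasvi2EG012216) averaged 3446 in the VG and 2893 in the ovary, a log2 ratio of 0.25. RLP24 (Nasvi2EG009901), which binds the pre-60S particle beside NOG1 in yeast, averaged 1114 in the VG and 766 in the ovary, a log2 ratio of 0.54, with VG libraries of 1130.5, 1095 and 1115 under the 1.5-fold assumption. NOG1 and RLP24 thus had higher means in the VG, although both turned negative (-0.40 and -0.11) when the 100 highest genes of either tissue were left out of the scaling.

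Nucleolar protein 12 (Nasvi2EG017945), grouped with the 60S factors by its name, was the only member called higher in the VG. It averaged 1163 in the VG and 302 in the ovary, a log2 ratio of 1.95 or 3.86-fold higher in the VG. Under the 1.5-fold assumption, its VG libraries had 799, 1566 and 1126 (SD 385, n = 3) and its ovary libraries 276, 325 and 304 (SD 24.9, n = 3). The assumption alone keeps these libraries apart, and the ratio became -0.42 when each tissue was scaled to its sum over all genes.

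Of the remaining 60S factors, SBDS, which helps to free new 60S subunits for translation, had 231, 306 and 247 in the VG libraries (mean 262 ± 39.8, SD, n = 3) against an ovary mean of 442, a log2 ratio of -0.76. The ribosome biogenesis regulatory protein (Nasvi2EG016500) had 795, 1279 and 816 in the VG libraries (mean 963 ± 274) against an ovary mean of 1226, a log2 ratio of -0.35, and library b exceeded the ovary mean. NOP16 had the widest spread between libraries of the 40 genes, with 191, 513 and 293 in the VG libraries against an ovary mean of 450.4, a log2 ratio of -0.44. No direction can be given for NOP16 or the regulatory protein, whose VG libraries fell on both sides of the ovary mean. BRX1 and the MKI67 FHA domain-interacting phosphoprotein had log2 ratios of -0.86 and -0.56, with all VG libraries below the ovary mean. NSA2 (Nasvi2EG011274) was listed at 0 in both tissues, like FCF1.

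Among the 6 genes grouped as rRNA methyltransferases other than fibrillarin, 1 (16.7%, against 34.2% of all genes) was called lower in the VG and none higher, 5 had a mean below that of the ovary, and the median log2 ratio was -0.58. NOP2 (Nasvi2EG004904), which methylates a cytosine of the large subunit rRNA in yeast, had 724, 893 and 795 in the VG libraries (mean 804 ± 84.5, SD, n = 3) against an ovary mean of 1766, a log2 ratio of -1.14. It was the only one past 2-fold, and library b was not 2-fold below the ovary mean. The gene named rRNA methyltransferase 3 (Nasvi2EG010120) averaged 1087 in the VG and 1967 in the ovary, a log2 ratio of -0.86, with VG libraries of 1251, 833 and 1178 under the 1.5-fold assumption.

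RRP8, which methylates an adenine of the large subunit rRNA in yeast, had 193, 209 and 324 in the VG libraries against an ovary mean of 379.5, a log2 ratio of -0.65. NEP1, which modifies a pseudouridine of the small subunit rRNA, had 124, 213 and 83.6 in the VG libraries (mean 140.2 ± 66.3, SD, n = 3) against an ovary mean of 184, a log2 ratio of -0.40. The VG libraries of NEP1 fell on both sides of the ovary mean, so no direction can be given for it. The remaining enzymes, like rRNA methyltransferase 3 above, carry names also used for mitochondrial rRNA methyltransferases, and their location in the cell is not given. The one named after CG11447 of *Drosophila* had 204, 235 and 251 in the VG libraries against 329.5 in the ovary, a log2 ratio of -0.52. rRNA methyltransferase 1 had 351, 219.8 and 394 in the VG libraries against 284 in the ovary, a log2 ratio of 0.18, again on both sides of the ovary mean. The last member, the cell growth-regulating nucleolar protein (Nasvi2EG015628), had 351, 622 and 404 in the VG libraries (mean 459 ± 144) against 592 in the ovary, a log2 ratio of -0.37.

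For 11 genes of low ovary level, the 1.5-fold assumption also split the ovary mean, so that the libraries of both tissues could be set side by side. The VG libraries lay below and apart from the ovary libraries for 7 of 11 (63.6%), compared with 36.8% of the 5780 genes read in this way. They lay above and apart for 2 of 11 (18.2%), TSR2 and nucleolar protein 12, compared with 42.5%. As this reading needs a low ovary level, the shares of the 11 and of the 5780 do not stand for all members or all genes. They overlapped for NEP1 and rRNA methyltransferase 1. The 1.5-fold assumption by itself kept the tissues apart for 3 of the 7 (NOC3, UTP23 and the first nucleolar protein 10 model) and for nucleolar protein 12, and for 1395 of the 4583 genes apart in either direction in the whole table. As 3 libraries against 3 give an exact two-sided permutation p of 0.1 at the smallest, no p was computed for single genes.

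**Figure D3:**
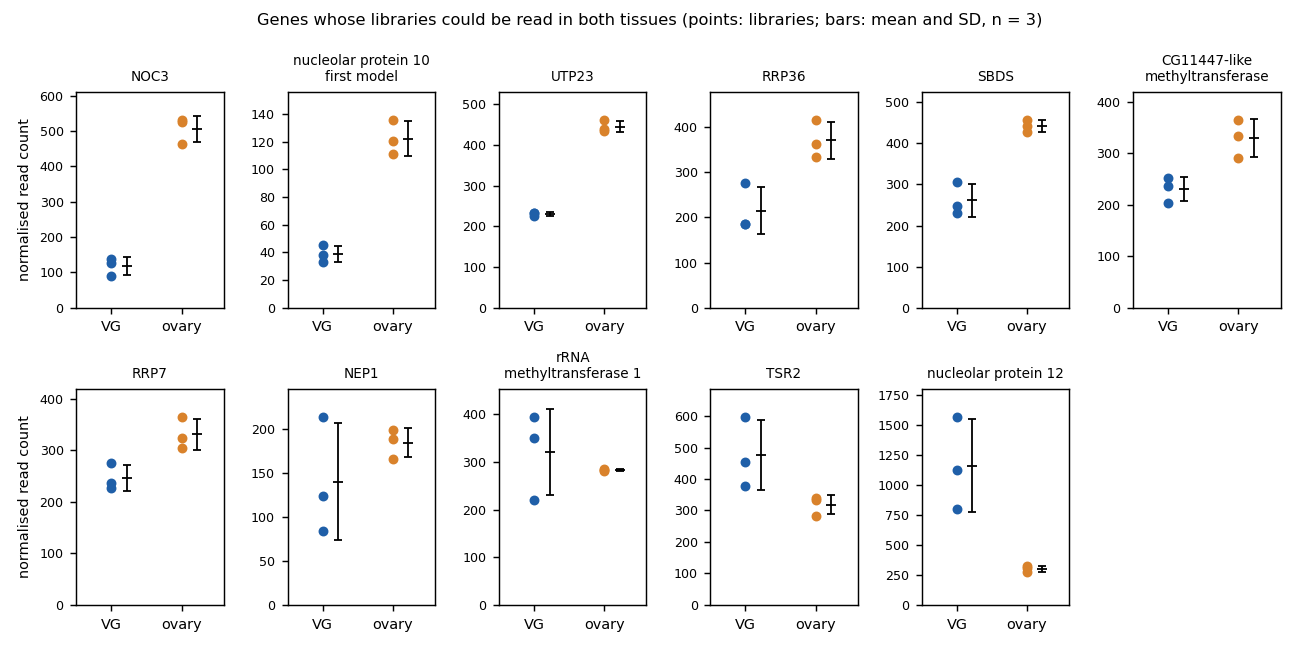
Normalised read counts (vertical axis, starting at 0, a scale of its own in each panel) of the 11 genes whose libraries could be read in both tissues, with VG libraries in blue and ovary libraries in orange. Bars give the mean and SD over 3 libraries. The VG points lie apart below the ovary points in 7 panels, overlap them for NEP1 and rRNA methyltransferase 1, and lie apart above them for TSR2 and nucleolar protein 12; these, like rRNA methyltransferase 1, turn in sign when each tissue is scaled to its sum over all genes.

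NOC3 and UTP23 were among the 7. NOC3 had 128, 91.0 and 139 in the VG libraries and 463, 524 and 530.1 in the ovary libraries, and its log2 ratio of -2.08 had a standard error of 0.20. UTP23, which in yeast frees a snoRNA from the early particle, had 225, 233 and 234 in the VG libraries (SD 4.85, n = 3) and 440.04, 434 and 460.5 in the ovary libraries (SD 13.9, n = 3). Its log2 ratio of -0.95 had a standard error of 0.03. The VG values of UTP23 rest on 118, 105 and 67 reads in libraries a, b and c. This standard error comes only from the spread of the library values, and counting noise in the reads was not added to it. The ovary part of these standard errors is bounded by the 1.5-fold assumption.

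RRP36, an early 40S factor in yeast, had 185, 184 and 275 in the VG libraries (mean 215 ± 52.4, SD, n = 3) and 361, 334 and 414 in the ovary libraries (mean 369.6 ± 40.8), with a log2 ratio of -0.78 and a standard error of 0.21. SBDS had ovary libraries of 428, 442 and 456 (SD 13.6, n = 3), and the standard error of its log2 ratio was 0.13. RRP7, also an early 40S factor in yeast, had 275, 235 and 227 in the VG libraries and 304, 324 and 364 in the ovary libraries, a log2 ratio of -0.43 with a standard error of 0.11. Its tissues were apart by a narrow margin, 275 in the highest VG library against 304 in the lowest ovary library. TSR2 had ovary libraries of 283, 338 and 334, below its lowest VG library of 378, and the standard error of its log2 ratio of 0.58 was 0.21.

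The genes around the pathway that the choice of words does not catch were counted in the same way. Of 4 genes annotated to RNA polymerase I, which transcribes the rRNA precursor, 3 were called lower in the VG (34.2% of all genes) and none higher, with a median log2 ratio of -1.16. The second largest subunit RPA2 was at -1.48, RPA49 at -1.19 and RPA12 at -1.13, whereas the initiation factor RRN3 was at -0.01. Of 9 exosome genes that passed the filter, which trim and degrade rRNA precursors, all 9 had a mean below that of the ovary, against 53.4% of all genes, and 4 were called lower, or 44.4% against 34.2%. Of 45 RNA helicase genes, a family that unwinds precursors but also has germ line members such as vasa, 27 (60%) were called lower and 2 higher, with a median of -1.24.

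A list of 28 other ribosome assembly genes was put together after the data were seen. It held 15 genes (53.6%, against 34.2% of all genes) called lower in the VG and none higher, with a median of -1.05. Among them were the core proteins of the H/ACA snoRNPs, the particles that convert uridines of rRNA to pseudouridines. Subunit 4, the catalytic subunit, had a log2 ratio of -1.95, with 1271 in the VG against 4902 in the ovary. Subunit 2 was at -1.08 and subunit 3 at -0.69, while subunit 1 was listed at 0 in both tissues. Of the H/ACA subunits with reads, 2 and 4 were thus past 2-fold and 3 was not.

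**Figure D4:**
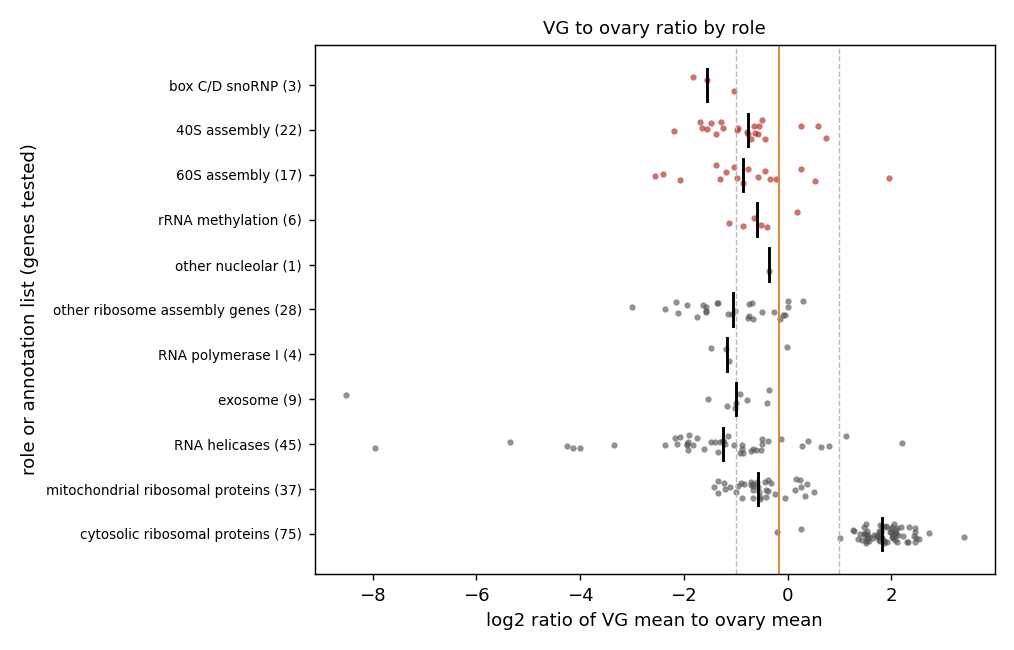
Log2 ratio of VG mean to ovary mean (horizontal axis) for each gene that passed the filter, by role (red) and by related annotation list (grey), with points spread vertically only to keep them apart. Black bars are medians, dashed lines mark 2-fold and the orange line is the median of all genes (-0.16). The medians of the roles run between -1.56 (box C/D snoRNP) and -0.37 (a single gene), and the cytosolic ribosomal proteins stand apart at 1.83, a value that becomes -0.54 when each tissue is scaled to its sum over all genes.

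The cytosolic ribosomal proteins, which these factors assemble into subunits, showed a different pattern. The 75 cytosolic ribosomal proteins that passed the filter had a median log2 ratio of 1.83. At least 2-fold higher in the VG were 73 of them (97.3%, against 31.1% of all genes). The 37 mitochondrial ribosomal proteins were closer to the members, with a median of -0.58. At least 2-fold lower in the VG were 7 of them (18.9%, against 34.2% of all genes). The median of the ribosome biogenesis genes minus that of the cytosolic ribosomal proteins was -2.61 on the log2 scale, a difference that no scaling of the tissues changes. Only 1 member, nucleolar protein 12, had a ratio above the median of the cytosolic ribosomal proteins. Summed over their genes, the members had 0.927 normalised counts per 100 of the cytosolic ribosomal proteins in the VG and 5.94 in the ovary, 6.41-fold less in the VG. This ratio was chosen after the data were seen, and it is likewise free of the scaling.

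The size of the difference for the ribosome biogenesis genes alone depended on the scaling. The members took 0.0593% of the summed VG level and 0.550% of the summed ovary level. When each tissue was scaled to its sum, all log2 ratios moved by -2.37, 48 of 49 members were called lower in the VG (73.3% of all genes) and the cytosolic ribosomal proteins, with a median of -0.54, were no longer higher. Since a scaling moves every gene alike, the members' median minus the median of all genes was -0.62 under each of them. This difference was -0.44 among genes with an average mean of at least 100, and -1.84 without a filter on low values. The last value leans on genes at 0 in a tissue, as the median of all genes was then 1.05. A VG mean of 0 was set to 3.49 and an ovary mean of 0 to 0.435. A gene with a few reads in the ovary alone can thus come out as higher in the VG, so -1.84 is not a larger contrast of the members.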

How the data were processed

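RNA-seq libraries were made from the VG and the ovary, with 3 replicates of each tissue. Reads were trimmed by the authors (fastq-mcf, SolexaQA), mapped with TopHat2, counted by strand on the exons of official gene set version 2 with HTSeq-count in union mode, and scaled with DESeq. For the genome, the build was not given in the sources used here. The deposited values used here are a signal, averages of DESeq-normalised read counts over a tissue's 3 libraries, not divided by gene length. The columns of the authors' own comparison (fold changes, log2 fold changes, p-values and adjusted p-values) were not used. Groups came from the labels, and no column of single libraries was present.

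Log2 ratios were computed from the tissue means. Genes were kept where the average of the means was at least 10 (10689 of the 19854 with a read), and a tissue at 0 was set to 3 reads of its library with the largest step. The rule was 2-fold. A mean is a sum of whole reads times 1 fixed step per library, and the steps found from low values gave the size factors and, where a single combination fitted the 10 digits deposited, the reads of each library. This held for 99.4% of VG means under 1000 and 98.3% of ovary means under 150. Library values are therefore recovered from the means. Procedures were tested on simulated data. In these, the 1.5-fold assumption was tried only at means under 1000, not at the higher VG means of the members it was used for.

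The words for members, the role groups and the gene lists were chosen with earlier results of these data known. Genes described singly by rule were the 10 of highest average mean, the 6 lowest and 6 highest log2 ratios, those at 0, and the highest of each role. Others were added after their values were seen, for their roles or complexes. Alternatives were 3 scalings, pseudocounts, filters, other folds, 1 gene per annotation and leaving out each VG library. The 1.5-fold reading, the genes of matching level, the list of other assembly genes and the ratio to ribosomal proteins were chosen after seeing the data. Gene identifiers were not paired with RefSeq genes in the sources used here, so no sequences are printed. Python 3.11.15, numpy 2.4.6, pandas 2.3.3, numba 0.67.0 and matplotlib 3.10.9 were used.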

Additional observations from a re-analysis of the deposited data

How the results depend on the processing

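With both pseudocounts, both filters and 1 gene per annotation, 18 or 19 members were called lower in the VG and 1 higher. The scalings move every gene alike. Scaled to the sum over all genes, 48 were called lower and 0 higher with a median log2 ratio of -3.15, and nucleolar protein 12 turned to -0.42. Without the 100 highest genes of either tissue, 40 were called lower (46.4% of all genes) with a median of -1.43. Centred on the median of all genes, the members' median was -0.62. At 1.5-fold, 31 members were lower (41.9% of all genes) and 2 higher, and at 4-fold 4 were lower (19.2%) and 0 higher. Leaving out each VG library in turn gave 18 to 21 members called lower, 1 higher, and medians of -0.89 to -0.69. The 9 members whose VG mean was not split, among them nucleolar protein 12 and the box C/D proteins, kept their mean here, so the 1 higher could not change. Without VG library c, that of the lowest size factor, 21 were called lower with a median of -0.87. Ovary libraries could not be left out, since few ovary means could be split.

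No paired analysis was possible because the table holds 1 mean per tissue and the recovered libraries carry no replicate numbers. In the VG, 1 read of a library adds 0.635 to 1.16 to the tissue mean, against 0.129 to 0.145 in the ovary, so fewer reads stand behind a given normalised count in the VG.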
